A study of Pomacea canaliculata with 36 samples.

Results

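The genes described here are 129 genes of the eye stalk of *Pomacea canaliculata*, the apple snail. After amputation these genes were nearly lost at the transcript level, and first stood above 12.5% of their intact mean at 6 days. They were chosen from group means of CPM (read counts relative to library totals that were scaled by TMM factors), each the mean of 4 libraries. A gene was a member where its mean was at least 5 CPM in intact stalks, at most 12.5% of the intact mean at both 1 and 3 days post amputation (dpa), above 12.5% and under 50% of it at 6dpa, above 50% of its own 9dpa mean at 12dpa, and above 25% of the intact mean at 28dpa. The rule was met by 129 of the 19622 genes with summed counts of 10 or more. All 129 also passed the filter on low counts used for testing, which left 17341 genes. These values chose the members, so the levels at 1, 3, 6 and 28dpa relative to Intact, and at 12dpa relative to 9dpa, are given as a description and were not tested.

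The apple snail is a freshwater gastropod that carries a camera-type eye, with a lens and a retina, at the tip of a stalk, and it is known for regrowing the whole eye after the stalk is cut. After such a cut the wound closes first, and the new eye forms from tissue at the stump and then differentiates. Transcripts that belong to the missing structures can be lost with the amputated tissue and followed as the structures return. The genes carry only locus identifiers here, so no role or cell type is given for any of them, and no sequence of them was at hand.

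Polyadenylated RNA of eye stalks was sequenced in 36 libraries, 4 for each of 9 groups: Intact, and 1, 3, 6, 9, 12, 15, 21 and 28dpa. The labels give no strain, age or sex, no further treatment, and do not state if the 4 libraries come from different animals, so the tests below rest on a spread among libraries that may be technical. The submitters' design text lists day 7 where the library labels say day 6, and the labels were followed. Totals lay between 21797015 and 32928737 counts per library, and 1 CPM stood for 19.2 to 33.7 counts. The 12dpa libraries stood apart from all other groups on component 4 of a principal component analysis of all genes tested, with 5.39% of the variance, at −56.2 ± 6.24 (SD, n = 4), against group means of −11.0 to 23.2 elsewhere. On component 1, with 48.0% of the variance, they did not: their mean was −12.5, as was that of 9dpa, while 1dpa lay furthest out at 148.7. In such bulk samples, fewer cells of a type and less RNA per cell cannot be told apart.

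In intact stalks the members spanned a wide range, with a lowest mean of 5.01 CPM, a median of 20.8 CPM and a highest mean of 2099 CPM. The median member stood at 5.69% of its intact mean at 1dpa and at 8.63% at 3dpa. At 6dpa the median was 18.2%, and the members ranged from 12.53% to 47.6%. In the groups that followed, the median was 31.4% (9dpa), 39.7% (12dpa), 39.3% (15dpa), 45.2% (21dpa) and 53.8% (28dpa) of Intact. Over all 12066 genes with an intact mean of at least 5 CPM, the medians after this scaling lay between 97.3% and 103.7% of Intact. Counts behind the low groups were small for some members: summed over the 4 libraries they ranged from 6 to 17298 at 1dpa, with a median of 115, and LOC112554118, LOC112554716 and LOC112572964 had fewer than 10. At 6dpa the lowest sum was 103 and the median 518.

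**Figure D1:**
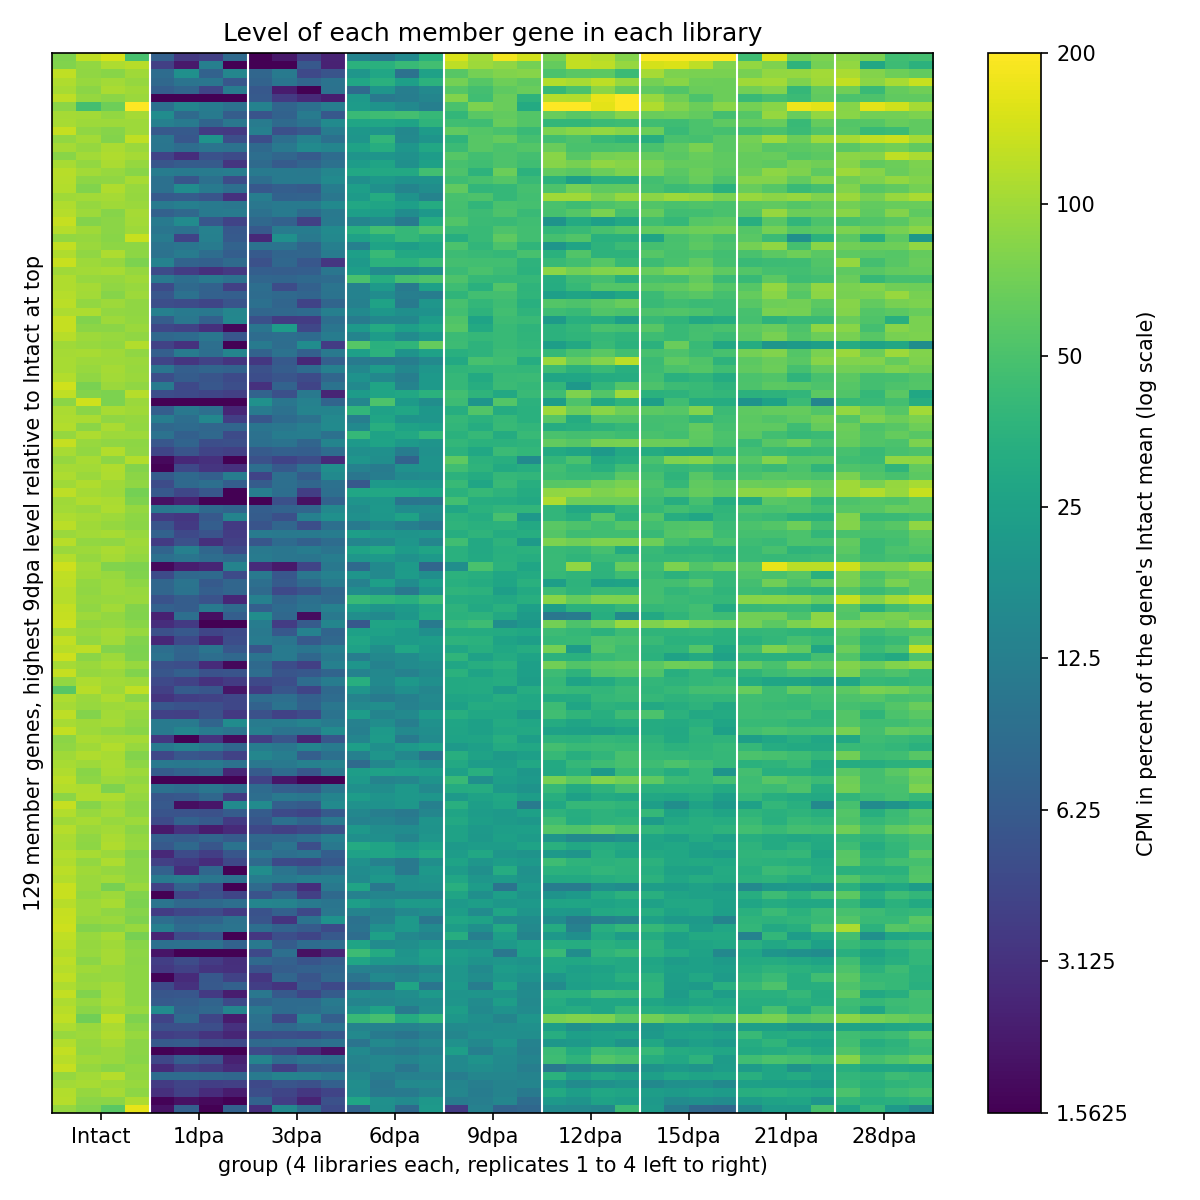
Level of each of the 129 members (rows, sorted by the 9dpa level) in each of the 36 libraries (columns, by group), as CPM in percent of the gene's Intact mean on a log colour scale, with values past either end drawn in the end colours. The 1dpa and 3dpa columns are dark throughout, the colour lightens at 6dpa, and most rows stay under their Intact level up to 28dpa.

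Added up over the members, their transcripts made 8888 ± 808 CPM in Intact (SD, n = 4 here and for each group that follows). The 1dpa sum was 587 ± 52.2 CPM, the 3dpa sum 777 ± 69.2 CPM and the 6dpa sum 1599.6 ± 94.8 CPM. The 9dpa sum was 2401 ± 140.4 CPM, the 12dpa sum 3290.4 ± 203 CPM and the 15dpa sum 3127 ± 142 CPM. The 21dpa sum was 3612 ± 86.4 CPM and the 28dpa sum 4395 ± 390.1 CPM. As shares of Intact these were 6.61% (1dpa), 18.0% (6dpa), 37.0% (12dpa) and 49.4% (28dpa). Each 6dpa library lay above each 3dpa library, and each 9dpa library above each 6dpa library, whereas the 12dpa and 15dpa libraries overlapped. The rule places the 6dpa mean above the 3dpa mean in every member. The gap between the sums of these 2 groups comes with the choice, and nothing is read from it. Without LOC112560319, the member of highest CPM, the sum stood at 5.81% (1dpa), 17.3% (6dpa) and 50.1% (28dpa) of Intact. The rule bounds every member in these 3 groups, so the sum over any part of the members keeps to the same bounds. These shares therefore cannot show whether the course rests on 1 gene.

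**Figure D2:**
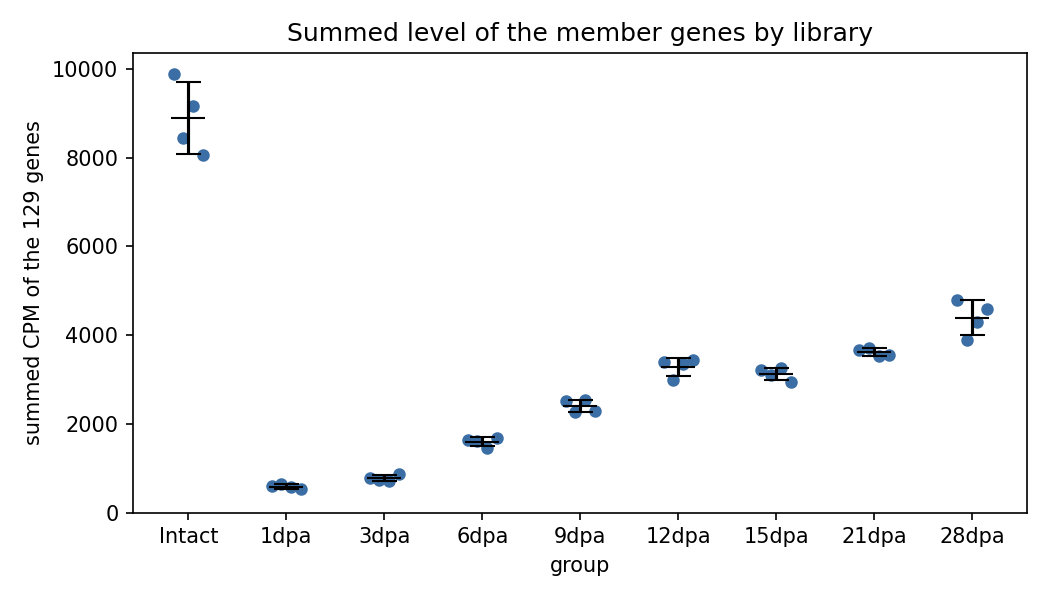
Summed CPM of the 129 members in each library (points) with the mean and SD of each group of 4 (bars), from Intact through 1dpa to 28dpa. The 4 Intact libraries lie between 8065 and 9891 CPM, the 1dpa libraries between 523 and 647 CPM, and the 28dpa libraries between 3896 and 4796 CPM.

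The return at 6dpa was a matter of degree. The 6dpa mean of 30 members lay between 12.5% and 15% of Intact, and the 3dpa mean of 36 lay between 10% and 12.5%. LOC112570095 was the member just inside the lower bound, at 86.4 ± 14.9 CPM at 6dpa and 689.6 ± 58.2 CPM in Intact (12.53%). LOC112561278 was the gene just outside it, at 12.4%, one of 218 genes that failed this criterion alone. At the upper bound LOC112573638 was inside, at 47.6%, and LOC112565749 was outside, at 51.4%. LOC112573638 had 3.60, 2.18, 2.41 and 4.09 CPM at 6dpa, against 6.44, 6.09, 5.92 and 7.33 CPM in Intact, and only 2.02, 1.67, 1.85 and 1.08 CPM at 28dpa. It was the single member whose highest group after amputation was 6dpa. At the bounds on the other groups, LOC112571269 was inside at 5.01 CPM in Intact and LOC112574585 outside at 4.99 CPM. At 1dpa LOC112560138 was inside at 12.4% of Intact and LOC112575429 outside at 12.7%, and at 3dpa LOC112573563 was inside at 12.4% and LOC112566575 outside at 12.53%. LOC112575784 was inside the bound on 12dpa, at 55.9% of its 9dpa mean, and LOC112562212 outside it, at 46.5%. LOC112562213 was the lowest member at 28dpa, at 25.6% of Intact, and no gene failed that criterion alone.

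Taken library by library, the rule held less strictly than over the means. All 4 libraries lay at or under 12.5% of the Intact mean for 103 members at 1dpa and for 81 at 3dpa, and all 4 lay above it at 6dpa for 83. All of these held together for 39 of the 129. Every 6dpa library lay above every 3dpa library for 103 members. The rule places the 6dpa mean above the 3dpa mean in every member, so this count is shaped by the choice. It has no share over all genes beside it, and nothing is read from it. When each of the 36 libraries was left out of the rule in turn, 89 members were chosen every time. When the rule was applied to replicates 1 and 2 alone it chose 135 genes, of which 130 also stood above 12.5% of Intact at 6dpa in replicates 3 and 4, at a median of 20.3%, while 93 stood at or under it there at both 1 and 3dpa. Of the 125 genes chosen on replicates 3 and 4, 95 stood above it at 6dpa in replicates 1 and 2, at a median of 16.8%, and 108 stood at or under it at both 1 and 3dpa. The 2 choices shared 77 genes. By the means of all 4 libraries, 349 of the 12066 genes with at least 5 CPM in Intact stood under 12.5% of it at 6dpa. Most genes thus stood above it without any choice, and nothing is read from the counts above it at 6dpa.

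The 2 low groups were also compared with each other. The rule caps both at 12.5% of Intact, and 119 genes failed the cap at 3dpa alone against 20 at 1dpa. The caps thus shape this difference, and nothing is read from the direction of the members as a group. The same limit holds for the single members below, whose values at both times were part of the choice. Of the 129 members, 54 rose and 0 fell at 3dpa relative to 1dpa, with a median log2 fold change of 0.58 (edgeR's quasi-likelihood test, adjusted p below 0.05). Over all 17341 genes tested, 28.9% were called higher and 26.6% lower, 55.5% in either direction, with a median of 0.05. The adjusted p-values of these and the following comparisons are Benjamini-Hochberg values over all genes tested. LOC112573334, among the 6 members of highest intact level, had 22.0, 20.3, 23.5 and 24.3 CPM at 3dpa, against 12.6, 12.7, 12.4 and 7.65 CPM at 1dpa. All 4 libraries of 3dpa were higher, and the log2 fold change was 1.05 ± 0.113 (SE, adjusted p = 2.93e-09). LOC112564620 averaged 1.05 ± 0.484 CPM at 3dpa, against 0.217 ± 0.0728 CPM at 1dpa (SD, n = 4 each), for a log2 fold change of 2.30 ± 0.622 (SE, adjusted p = 0.00216). LOC112560319 rose by 0.34 ± 0.0796 (SE, adjusted p = 0.000517), and its groups overlapped. In this comparison 75 members did not pass the test.

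Between 6 and 9 days the level of most members rose further. Here 74 members rose and 2 fell at 9dpa relative to 6dpa, with a median log2 fold change of 0.66. Over all genes tested, 9.68% were called higher and 9.69% lower, 19.4% in either direction, with a median of 0.01. The rule bounds the 6dpa mean on both sides, and it uses 9dpa only as the level against which 12dpa is set. LOC112554544 had 24.7, 16.6, 29.8 and 23.2 CPM at 9dpa, against 2.25, 1.76, 2.53 and 5.66 CPM at 6dpa. Its groups were far apart, and its log2 fold change of 2.94 ± 0.363 (SE, adjusted p = 1.07e-06) was the largest rise without overlap. LOC112557792 had 4.70, 3.95, 5.06 and 5.61 CPM at 9dpa, against 0.707, 1.68, 1.06 and 1.29 CPM at 6dpa, giving a log2 fold change of 2.05 ± 0.284 (SE, adjusted p = 5.66e-06). From 9dpa on its level hardly moved: its means lay between 4.83 and 5.42 CPM in the 5 groups up to 28dpa, under its intact mean of 8.48 CPM.

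The 2 members that fell were LOC112560608 and LOC112561152. LOC112560608 had 2.82, 2.41, 1.95 and 2.69 CPM at 9dpa, against 5.59, 6.53, 4.22 and 5.20 CPM at 6dpa, so every 9dpa library was lower. Its log2 fold change was −1.11 ± 0.236 (SE, adjusted p = 0.00123), and its mean was 9.98 ± 1.27 CPM at 12dpa (SD, n = 4). LOC112561152 had 6.62, 7.04, 8.13 and 4.93 CPM at 9dpa, against 15.2, 10.1, 8.87 and 11.4 CPM at 6dpa, giving a log2 fold change of −0.77 ± 0.184 (SE, adjusted p = 0.0036). It had been at 56.1 ± 9.20 CPM in Intact (SD, n = 4), and its 9dpa mean, 11.9% of that, was among the 2 lowest shares of all members at that time. The other was LOC112562213, at 8.01%, with 0.528 ± 0.259 CPM at 9dpa and 6.60 ± 3.16 CPM in Intact. In all, 12 members had a lower mean at 9dpa than at 6dpa, among them LOC112570448, the second in Intact CPM, for which the difference did not pass the test (log2 fold change −0.02 ± 0.135, SE, adjusted p = 0.917).

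**Figure D3:**
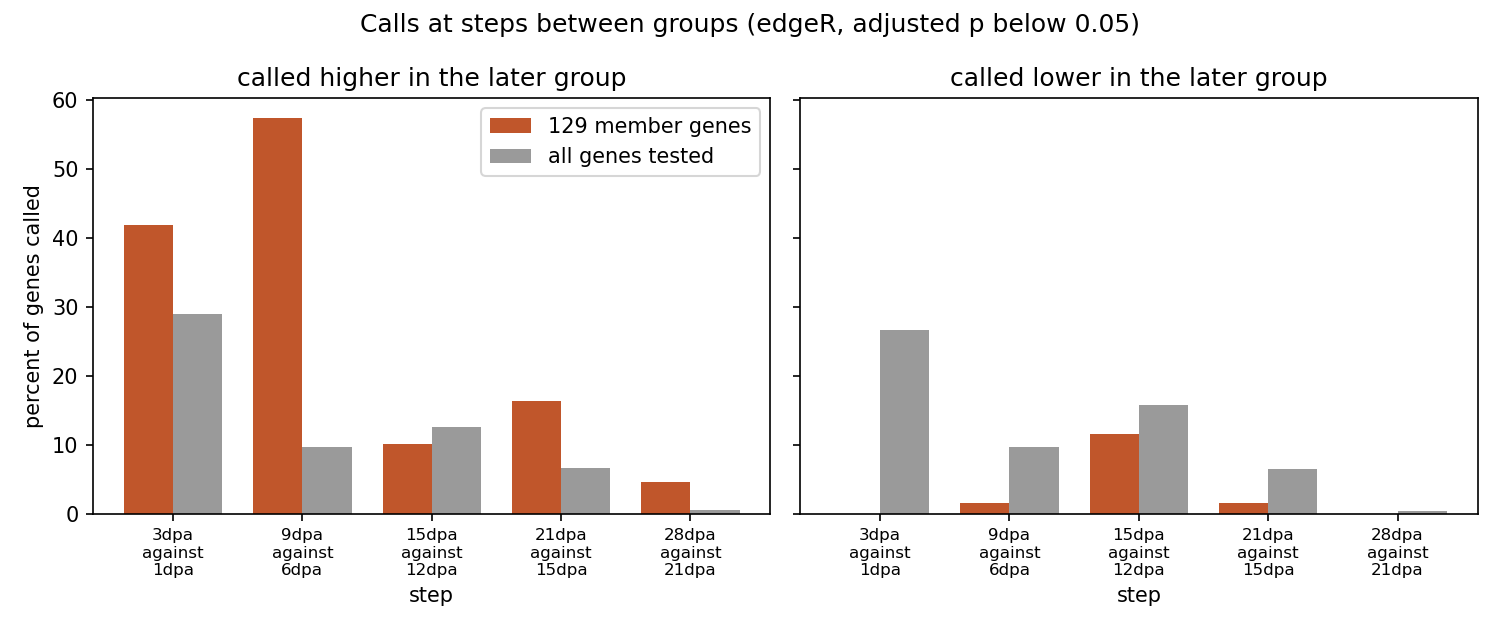
Percent called higher and lower (adjusted p below 0.05) among the 129 members (left bar of each pair) and among all 17341 genes tested (right bar), for 5 steps between time points. At 9dpa against 6dpa 74 members rose and 2 fell, at 15dpa against 12dpa 13 rose and 15 fell, and at 28dpa against 21dpa 6 rose and 0 fell.

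From 12 to 15 days the members as a group showed no common direction. At 15dpa 13 rose and 15 fell relative to 12dpa, with a median log2 fold change of −0.02, beside 12.6% called higher and 15.7% lower over all genes, 28.3% in either direction. The rule does not use 15dpa, but it sets a lower bound on 12dpa against 9dpa, which 4 genes failed alone. LOC112554544 rose again, with 34.6, 40.6, 47.7 and 33.7 CPM at 15dpa, against 12.0, 20.7, 18.9 and 13.2 CPM at 12dpa (log2 fold change 1.26 ± 0.313, SE, adjusted p = 0.00302). LOC112575784, with 5.63, 4.93, 6.98 and 7.29 CPM at 15dpa against 2.38, 3.77, 2.99 and 3.64 CPM at 12dpa, rose by 0.95 ± 0.260 (SE, adjusted p = 0.00656). In both genes the 15dpa libraries lay above all 12dpa libraries. The largest fall was that of LOC112562847, which had 19.04, 13.9, 11.6 and 14.4 CPM at 15dpa, against 35.7, 50.7, 28.1 and 62.5 CPM at 12dpa (log2 fold change −1.59 ± 0.334, SE, adjusted p = 0.000724). LOC112564620 had 26.6, 19.7, 14.1 and 18.9 CPM at 15dpa, against 33.0, 32.2, 48.3 and 57.1 CPM at 12dpa, and its log2 fold change was −1.11 ± 0.221 (SE, adjusted p = 0.000395). These values set 15dpa against the libraries of 12dpa, which stood apart on component 4 over all genes. The part of that difference in the falls and rises was not tested.

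At 21dpa 21 members rose and 2 fell relative to 15dpa, with a median log2 fold change of 0.23, beside 6.60% called higher and 6.45% lower over all genes, 13.0% in either direction. Neither group was used by the rule. LOC112564984 had 57.1, 58.9, 56.7 and 44.9 CPM at 21dpa, against 32.4, 29.4, 27.8 and 27.6 CPM at 15dpa. Its groups did not overlap, and its log2 fold change was 0.90 ± 0.151 (SE, adjusted p = 0.000225). LOC112564455 had 33.9, 32.7, 34.5 and 38.2 CPM at 21dpa, against 22.7, 19.8, 19.5 and 12.8 CPM at 15dpa, giving a log2 fold change of 0.91 ± 0.296 (SE, adjusted p = 0.0397). The 2 that fell were LOC112554544 and LOC112564851. LOC112554544 had 7.17, 24.4, 11.3 and 12.4 CPM at 21dpa, all under its 15dpa libraries, and a log2 fold change of −1.48 ± 0.318 (SE, adjusted p = 0.00288). LOC112564851 had 48.9, 43.0, 41.1 and 46.0 CPM at 21dpa, against 57.8, 69.96, 63.5 and 53.7 CPM at 15dpa (log2 fold change −0.44 ± 0.127, SE, adjusted p = 0.0204). The count of 23 called members was 10 without 21dpa replicate 2 and 13 without 15dpa replicate 2, and with library size alone as scaling 11 rose and 6 fell. The call of LOC112564455 was lost without any 1 of 7 of the 8 libraries, with library size alone (adjusted p = 0.0525) and with no filter on low counts (adjusted p = 0.0512), and that of LOC112564851 without 15dpa replicate 2 or 21dpa replicate 2.

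The last step was the smallest over all genes, with 0.525% called higher and 0.392% lower at 28dpa relative to 21dpa, 0.917% in either direction. Of the members 6 rose and 0 fell. The fitted difference was upward for 117 of the 129, beside 8568 of the 17341 genes tested. The median log2 fold change was 0.27 in the members and 0.00 over all genes. The rule sets only a lower bound on 28dpa, against Intact, and does not use 21dpa. LOC112553279 had 19.8, 19.1, 29.3 and 24.8 CPM at 28dpa, against 14.7, 15.0, 12.6 and 13.6 CPM at 21dpa. Its 28dpa libraries were all higher (log2 fold change 0.75 ± 0.125, SE, adjusted p = 0.00306), and its 28dpa mean of 23.2 CPM lay beside 23.1 CPM in Intact. LOC112561804 had 39.9, 33.5, 36.5 and 39.1 CPM at 28dpa, against 24.5, 23.9, 23.6 and 21.7 CPM at 21dpa (log2 fold change 0.68 ± 0.106, SE, adjusted p = 0.00228), while its intact mean was 98.4 CPM. The other 4 were LOC112564690, LOC112566222, LOC112571174 and LOC112570095, with log2 fold changes of 0.45 to 0.49. The count was 2 without 21dpa replicate 2, 3 or 4 or 28dpa replicate 4, and 3 without 28dpa replicate 1 or 3. It was 0 where only the 2 groups were fitted, with an adjusted p of 0.0838 for LOC112553279 and 0.0647 for LOC112561804.

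Set against intact stalks, the members were still low at the intermediate times. The 4 comparisons share the Intact libraries, and the Intact level is part of the rule, so their direction is not independent of the choice. At 9dpa 0 members were higher and 126 lower than Intact (22.1% and 20.4% over all genes, 42.4% in either direction), with a median log2 fold change of −1.67. At 12dpa 2 were higher and 115 lower (27.4% and 28.6%, 56.0% in either direction), with a median of −1.33. At 15dpa 1 was higher and 120 lower (22.8% and 22.0%, 44.8% in either direction), with a median of −1.35. At 21dpa 0 were higher and 114 lower (20.6% and 18.7%, 39.3% in either direction), with a median of −1.13. LOC112560319 shows the common case: it had 871, 848, 871 and 909 CPM at 21dpa, against 2379, 1935, 2168 and 1912 CPM in Intact, giving a log2 fold change of −1.26 ± 0.0802 (SE, adjusted p = 7.45e-14).

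The members above Intact in these tests were 3. LOC112562847 was higher at 12dpa, with the values given above against 14.7, 7.93, 11.7 and 34.0 CPM in Intact (log2 fold change 1.37 ± 0.331, SE, adjusted p = 0.000802). Intact replicate 4 lay within the range of the 12dpa libraries, so the groups overlapped. LOC112564620 was also higher at 12dpa, against 34.8, 26.2, 24.4 and 27.3 CPM in Intact (log2 fold change 0.60 ± 0.217, SE, adjusted p = 0.0199), again with overlap. LOC112554544 was higher at 15dpa, against 12.6, 20.3, 24.0 and 7.88 CPM in Intact, without overlap (log2 fold change 1.28 ± 0.315, SE, adjusted p = 0.0014). The 3 members that did not pass the test at 9dpa against Intact were LOC112554544, LOC112556893 and LOC112571269. LOC112556893 averaged 10.6 ± 2.32 CPM at 9dpa, against 11.1 ± 1.97 CPM in Intact (SD, n = 4 each), and later 13.9 ± 3.71 CPM (15dpa) and 5.47 ± 3.09 CPM (28dpa).

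**Figure D4:**
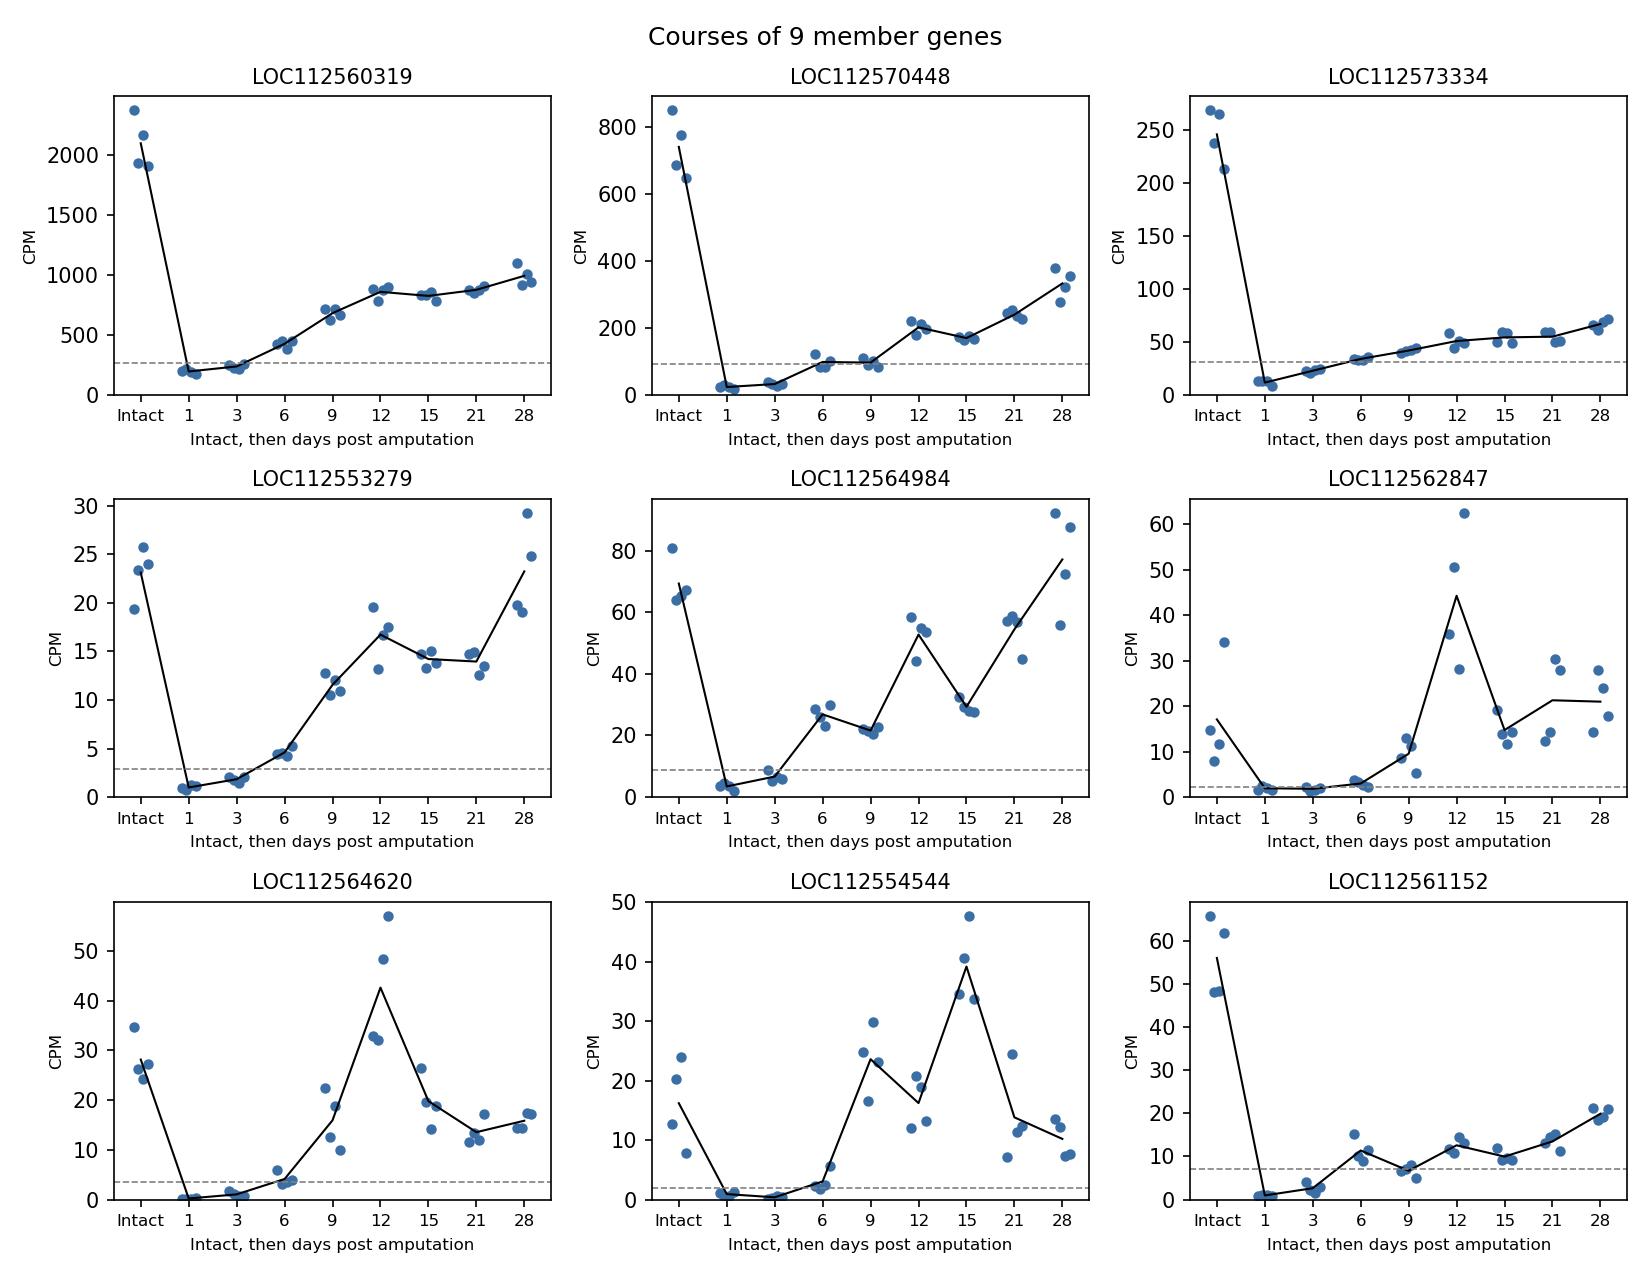
CPM of 9 members in each library (points) with the line of group means, from Intact through 1dpa to 28dpa; the dashed line is 12.5% of the gene's Intact mean. LOC112560319 and LOC112570448 have their highest mean after amputation at 28dpa, LOC112554544 has its highest mean at 15dpa, LOC112562847 and LOC112564620 at 12dpa, and LOC112561152 is lower at 9dpa than at 6dpa.

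The 6 members of highest intact level differed in how far they came back. LOC112560319 had 196, 217, 187 and 171 CPM at 1dpa and 419, 445, 385 and 448 CPM at 6dpa. At 9dpa it had 714, 622, 717 and 668 CPM, a rise of 0.69 ± 0.0794 on the log2 scale (SE, adjusted p = 3.21e-07), and at 28dpa 1101, 918, 1009 and 938 CPM, or 47.3% of Intact. LOC112570448 averaged 22.6 ± 5.33 CPM on day 1, 97.6 ± 18.7 CPM on day 6, 201 ± 19.1 CPM on day 12 and 333 ± 43.5 CPM on day 28 (SD, n = 4 each), the last being 44.9% of its intact 741 ± 90.3 CPM. LOC112570095 reached 46.7% of Intact at 28dpa, LOC112555306 39.6% and LOC112573334 27.1%. LOC112570046 reached most, with 149.7 ± 8.40 CPM at 28dpa and 226 ± 19.4 CPM in Intact (SD, n = 4 each), or 66.3%, and had already stood at 45.9% at 9dpa.

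Over all members, a mean of at least 50% of Intact was first met by 13 on day 9, by 24 on day 12, by 10 on day 15, by 14 on day 21 and by 20 on day 28, while 48 never met it. At 28dpa 79 of the 129 stood at or above 50%. An intact mean was reached or passed at some time by 10 members. At 28dpa these were LOC112553217, LOC112553279, LOC112558092, LOC112562269, LOC112562847 and LOC112564984. The highest shares were those of LOC112562847, at 122.9%, and LOC112562269, at 117%, with 6.47, 7.85, 8.43 and 6.49 CPM at 28dpa against 5.74, 6.42, 5.05 and 7.81 CPM in Intact. The groups of LOC112562269 overlapped. The group mean after amputation was highest at 12dpa for 16 members, at 15dpa for 5, at 21dpa for 7 and at 28dpa for 99, while 15 members had a rising mean at every step.

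The order of genes in the RefSeq gene table of the assembly ASM307304v1 was used to look for neighbours. Among the members 8 lay in 3 runs of neighbouring genes. Whether this is more than the number of members alone would give was not tested. The longest held LOC112558941, LOC112558894, LOC112558885 and LOC112558928, whose courses were alike: they stood at 13.2%, 14.2%, 14.6% and 13.8% of Intact at 6dpa, and at 41.2%, 43.5%, 42.6% and 43.7% at 28dpa. LOC112558941 had 11.3, 11.1, 10.9 and 12.6 CPM at 6dpa, against 102, 86.4, 82.5 and 76.2 CPM in Intact. At 21dpa relative to 15dpa it rose by 0.43 ± 0.122 (SE, adjusted p = 0.0192), and the other 3 had log2 fold changes of 0.52, 0.48 and 0.51 that did not pass the test. Whether these neighbours are near-identical copies was not tested, and copies could share reads, so the 4 courses may not be separate measurements. LOC112570448 and LOC112570647 were also neighbours, yet differed in course: LOC112570647 already stood at 45.0% of Intact at 6dpa and at 50.6% at 28dpa, and LOC112570448 stood at 13.2% and 44.9%. The remaining pair was LOC112572434 and LOC112572435, at 73.7% and 70.3% of Intact at 28dpa. Among the genes that first came back at 9dpa, 4 lay in 2 runs.

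Those genes, 94 in number, were chosen by the same rule except that their 6dpa mean was at or under 12.5% of Intact and their 9dpa mean above it. Only 2 genes met the rule with a 6dpa mean at or above 50%. The median member first back at 6dpa stood at 18.2% (6dpa), 31.4% (9dpa), 39.7% (12dpa) and 53.8% (28dpa) of Intact, and the median gene first back at 9dpa at 9.02% (6dpa), 18.1% (9dpa), 34.3% (12dpa) and 53.6% (28dpa). These 4 groups enter the choice, and the 15 and 21dpa groups do not. The shares at 15 and 21dpa were 39.3% and 45.2% for the members, against 32.5% and 41.0%. These shares are relative to Intact, which the rule uses, and the sets are split by the 6dpa share. The shares are thus not independent of the choice. At 3dpa relative to 1dpa 54 of the 129 members rose and 0 fell, against 16 and 4 of the 94 genes first back at 9dpa. The rule caps both groups in both sets, and the sets are split by the 6dpa mean. Their median 3dpa levels were 8.63% and 4.61% of Intact, so the choice shapes this contrast and nothing is read from it. At 21dpa relative to 15dpa 21 members rose and 2 fell, against 23 and 0. At 28dpa relative to 21dpa 6 members rose and 0 fell, against 3 and 0. The fitted difference of this last step was upward for 117 of the 129 members and 91 of the 94 genes. Its medians were 0.27 and 0.38. The difference between the 2 sets was not tested.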

How the data were processed

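The values are raw counts of reads per gene in 36 libraries, in 1 table deposited by the authors. RNA was extracted with Trizol and selected for polyA, per the labels' protocols, and STAR is named in the submitters' processing notes. Not given in the sources used here are its version, the build and gene models, whether strand was used, and how reads with several matches were counted, so overlapping genes and near-identical copies can share counts. Groups and replicate numbers were taken from the library titles. All 21131 identifiers matched the RefSeq gene table of ASM307304v1, which gives no product names, and the planned descriptions of proteins, promoters and cell type markers could not be made.

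The analysis used edgeR 4.0.16 in R 4.3.3, with TMM scaling, filterByExpr on the 9 groups, and a single robust quasi-likelihood fit (glmQLFit; group means only) over all 36 libraries, so that groups share an estimate of the spread. The 9 comparisons were 2-sided, with Benjamini-Hochberg adjustment over 17341 genes and a threshold of 0.05. Standard errors come from the F statistic. The procedure was also run on simulated counts. That run gave every gene the same spread, so it does not measure error rates in these data. Alternatives were RLE scaling, library size alone, other filters, DESeq2 1.42.0, limma-voom (limma 3.58.1) with sample weights, only the groups compared, a replicate term, a fold threshold, other bounds in the rule, and each library left out. The 54 pairs of libraries within groups all differed by more than sampling noise (chi-square of at least 9.78 per degree of freedom).

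The members, lists and tests were chosen with earlier results of these data known. Named members are the 6 of highest Intact level, the extremes at 9dpa and 28dpa, up to 2 rises and 2 falls without overlap per step from 6dpa on, those at the bounds of the 6dpa criterion, and the longest runs of neighbours. Genes at the other bounds, and those named to complete a count of 6 or fewer, were chosen after their values were seen, as was LOC112564620 at 3dpa.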

Additional observations from a re-analysis of the deposited data

Results flagged for a closer look

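For 27 named members, and for the summed and median member level, the 4 libraries of each group were searched for one that stood far from the other 3. Of 261 groups of 4, 7 held such a library, where chance flags about 1 in 20. LOC112570095 had 40.8 CPM in 3dpa replicate 4, above 33.9 to 35.1 CPM in the others. LOC112573334 had 7.65 CPM in 1dpa replicate 4, under 12.4 to 12.7 CPM in the others. LOC112570046 had 86.6 CPM in 9dpa replicate 2, under 108.0 to 111.8 CPM. LOC112562213 had 2.81 CPM in 12dpa replicate 4, above 0.961 to 1.05 CPM. LOC112564984 had 44.9 CPM in 21dpa replicate 4, under 56.7 to 58.9 CPM. LOC112564851 had 9.49 CPM in 3dpa replicate 4, above 5.83 to 5.96 CPM. LOC112570647 had 18.0 CPM in 9dpa replicate 1, above 13.9 to 14.1 CPM.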

How the results depend on the processing

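The rule chose 101 to 146 genes under other bounds or scalings and 119 to 137 with 1 library left out, in place of 129. It chose 133 without its 12dpa criterion and 124 without 1dpa replicate 2 and 3dpa replicate 1 together, both added after seeing the data. Runs with 1 library left out are not in the next count. Of 98 values of the number of members and of members called under other settings, 89 stayed within 1.5 times the value reported and 9 did not. With 1 library left out, 6 of 8 counts for 28dpa against 21dpa and 2 of 8 for 21dpa against 15dpa did not. With a log2 fold change of at least 1, 22 members were called at 3dpa against 1dpa, 40 at 9dpa against 6dpa, 5 at 15dpa against 12dpa, 1 at 21dpa against 15dpa and 0 at 28dpa against 21dpa, which follows from the stricter criterion. For 28dpa against 21dpa, DESeq2 called 11, limma-voom 13 and a fit to only the 2 groups 0; for 21dpa against 15dpa limma-voom called 42; the cause was not tested. With 1 library left out, the counts ranged over 43 to 55 for 3dpa against 1dpa, 68 to 78 for 9dpa against 6dpa, 23 to 29 for 15dpa against 12dpa, 10 to 22 for 21dpa against 15dpa and 2 to 7 for 28dpa against 21dpa. Against Intact they ranged over 125 to 126 at 9dpa, 111 to 118 at 12dpa, 121 to 122 at 15dpa and 106 to 115 at 21dpa.

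Replicate numbers showed no pairing of libraries on average. Same-numbered libraries of different groups had a mean correlation of 0.0012 in their deviations, against −0.0003 for different numbers. Of the 144 same-numbered pairs 25 were over 0.1, and a mean over all groups cannot exclude pairing between some of them. With a replicate block 55, 75, 31, 21 and 8 members were called in the 5 steps in time order, and 125, 119, 122 and 113 at 9, 12, 15 and 21dpa against Intact. Library size alone moved the median log2 ratio of all genes to Intact to −0.19 at 1dpa and −0.16 at 28dpa, and 63 rather than 79 members then stood at or above 50% of Intact at 28dpa. At 21dpa against 15dpa it gave 64.7% of calls upward, in place of 91.3%. Of 136 values for single genes, runs with 1 library left out not among them, 125 kept their direction and call, 11 lost the call and 0 reversed. With 1 library left out, the call was lost in 7 of 8 runs for LOC112564455 and in 2 of 8 for LOC112564851. Depth limits the members of low level: at 1dpa the median member had 115 counts in 4 libraries.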
